A study of Mus musculus with 8 samples.

Results

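UDP-glucuronosyltransferases (UGTs) were followed in ileal crypt cells of C57BL/6 mice. The 10 genes described are Ugt1a1, Ugt1a6a, Ugt1a6b, Ugt1a7c, Ugt1a10, Ugt2a3, Ugt2b5, Ugt2b34, Ugt2b35 and Ugt2b36, taken by name from the 55487 named rows of the deposited table. All 9 rows named Ugt1a were also summed, because these genes share exons. One group of mice was given CPT-11, or irinotecan, a drug that poisons topoisomerase I once activated, at a dose of 20 mg per kg over 7 days, and the other was given vehicle. Each group has 4 RNA sequencing libraries. No age, sex or genotype beyond the strain is used here. Crypts, which are the intestine's stem cell pockets, were released with EDTA and dissociated with trypsin without a sort. The labels do not tie the libraries to individual mice. The p-values therefore reflect library-to-library spread, part of which may be technical.

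UGTs are enzymes of the endoplasmic reticulum that join glucuronic acid, taken from UDP-glucuronate, to small molecules such as bilirubin, steroids, bile acids, phenols and drugs, which makes them soluble for export. CPT-11 is cut by carboxylesterases to SN-38, its active and gut-toxic form, and in humans UGT1A1 is the best known enzyme that inactivates SN-38 by glucuronidation. In the gut, bacterial beta-glucuronidases can release SN-38 again.

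In the Ugt1a locus on the plus strand of mouse chromosome 1, each gene has its own first coding exon, which encodes the part of the enzyme that binds the substrate, joined to a common set of exons for the part that binds UDP-glucuronate. In GENCODE M21 on GRCm38.p6 the first of the 4 common exons lies at chr1:88215044-88215175, and all 9 genes contain it. The sequences below show why a read from the common exons cannot be placed. Each gives the last 30 bases of a gene's own coding exon in lower case and the first 30 bases of the common exon in capitals, 5′ to 3′.
Ugt1a1: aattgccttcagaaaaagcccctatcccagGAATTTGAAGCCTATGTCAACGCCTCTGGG
Ugt1a6a: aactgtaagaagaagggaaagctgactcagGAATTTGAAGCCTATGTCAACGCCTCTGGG
Ugt1a6b: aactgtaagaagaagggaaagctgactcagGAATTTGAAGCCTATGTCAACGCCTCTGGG
Ugt1a7c: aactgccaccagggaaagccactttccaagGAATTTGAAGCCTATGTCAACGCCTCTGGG
Ugt1a10: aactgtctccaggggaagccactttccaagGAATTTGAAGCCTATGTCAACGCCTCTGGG
The capitals are the same in all 5 sequences, and over the whole of the common exons every pair of the 9 genes had 100% identity. The bases before the common exons differed more, with identities of 52.6% to 89.5% between pairs and a median of 55.7%. The highest value belonged to Ugt1a6a and Ugt1a6b, whose last 30 own bases are identical as printed. Of their last 859 own bases, 833 were the same. Only 2.26% of the 50-base windows of the Ugt1a6a transcript were found in no other UGT gene. This share was 19.3% for Ugt1a6b, 41.8% for Ugt1a1 and 59.1% for Ugt1a7c. Windows were compared with all GENCODE M21 transcripts of the other genes, and which gene held the matching windows was not examined.

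**Figure D1:**
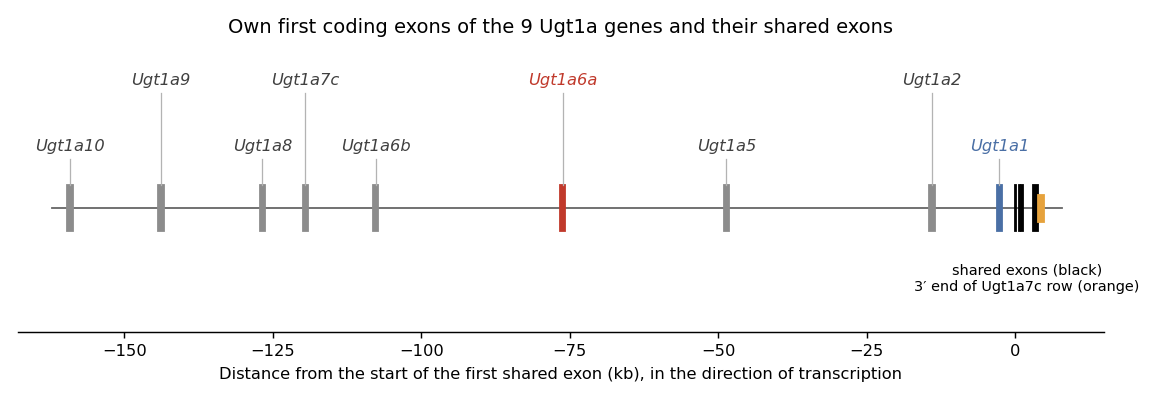
Map of the Ugt1a locus, with distance from the start of the first common exon in kb on the horizontal axis. Coloured and grey boxes mark the 9 own coding exons (drawn at one width), black boxes the 4 common exons, and the orange box the 3′ stretch by which the Ugt1a7c transcript runs 1005 bases past the end of the Ugt1a1 transcript in GENCODE M21. No other Ugt1a transcript used runs more than 7 bases past that end.

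The deposited values are estimated counts, in which reads from shared exons had been divided between genes. The sum of the 9 Ugt1a rows lay within 0.02 of a whole number in all 8 libraries, whereas Ugt1a1, Ugt1a6a and Ugt1a7c did so in 0 of 8. Single Ugt1a rows therefore carry the uncertainty of that division, and the sum does not. The Ugt1a7c transcript with the length listed in the table runs 1005 bases past the end of Ugt1a1, while RefSeq ends 7 of the 9 genes at that same distal end. Its row can thus receive 3′ reads of other Ugt1a transcripts, and the part of this in the results was not tested. The Ugt2 genes lie on chromosome 5 and are mostly distinct, since 96.2% of windows of Ugt2a3, 97.9% of Ugt2b34, 99.7% of Ugt2b36 and 100% of Ugt2b35 were found in no other UGT gene. For Ugt2b5, which is 93.9% identical to Ugt2b38, this share was 58.3%. Counts lay within 0.02 of a whole number in all 8 libraries for Ugt2b35 and Ugt2b36. They did so in 0 of 8 for Ugt2a3, 2 for Ugt2b34, 1 for Ugt2b5 and 1 for the sum of the Ugt2 rows. Ugt2a3, Ugt2b34, Ugt2b5 and the Ugt2 sum therefore also carry some division of reads.

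Total counts were 20790164 to 23479121 per library. CPT-11 replicate 2 stood apart from the rest: its Spearman correlation across genes with the other CPT-11 libraries was 0.928 to 0.960, against 0.972 to 0.988 among those and 0.987 to 0.990 among vehicle libraries. Genes of 3000 bases or more held 16.5% of its counts, against 21.9% to 30.0% in the other 7 libraries. For several UGT and marker values that shift without this library, the value without it is given beside it. Across the table, 770 of 14011 tested genes passed an adjusted p of 0.05 in edgeR's quasi-likelihood test, which is 5.5%, with 417 higher (2.98%) and 353 lower (2.52%) in CPT-11 libraries.

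CPT-11 libraries held more Ugt1a6a and less Ugt1a1 and Ugt2a3 transcript than vehicle libraries, and the other members did not pass the test. Of the 10 members, 9 passed the filter on low counts, 1 rose and 2 fell. The 3 called members are set against 5.5% of all tested genes. The remaining tested members had log2 fold changes of -0.60 to 0.06 (CPT-11 over vehicle). The median over the 9 tested members was -0.52, against 0.01 over all tested genes. Groups did not overlap for the 3 called members, with CPT-11 above vehicle for 1 and below for 2. Over all tested genes, 18.5% did not overlap, with CPT-11 above in 8.43% and below in 10.1%. Levels are given as CPM, counts scaled to the library size after TMM normalization.

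**Figure D2:**
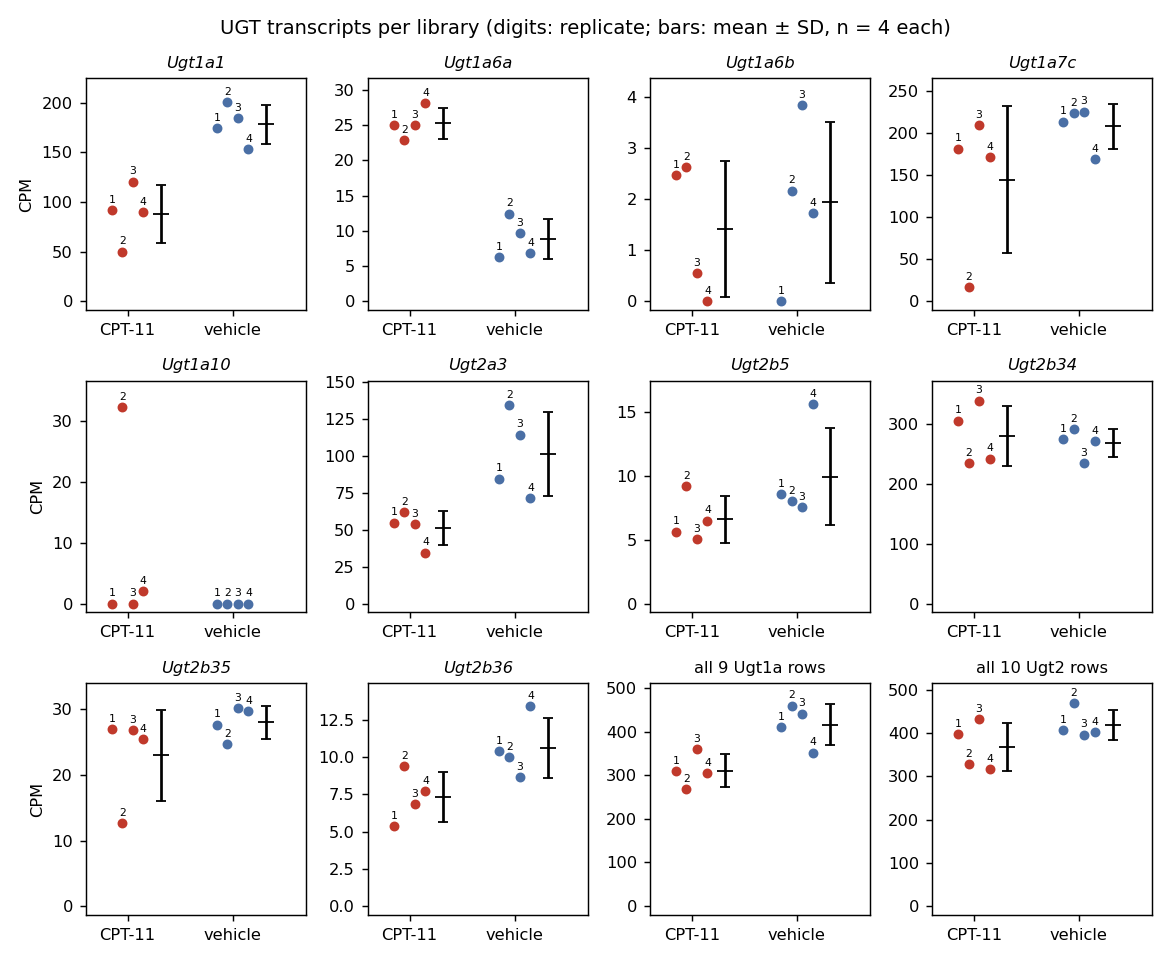
CPM of the 10 members and of the summed Ugt1a and Ugt2 rows in each library, with CPT-11 to the left of vehicle, points numbered by replicate, and bars giving mean ± SD (n = 4 each; omitted for Ugt1a10, which is at 0 in 6 libraries). Ugt1a6a lies higher, and Ugt1a1 and Ugt2a3 lower, in every CPT-11 library than in any vehicle library, and CPT-11 replicate 2 is far from its group for Ugt1a7c and Ugt1a10.

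Ugt1a1, the enzyme that conjugates bilirubin, was at 91.9, 49.95, 121 and 90.0 CPM in CPT-11 replicates 1 to 4, against 175, 201, 185 and 154 CPM in vehicle replicates 1 to 4. The highest CPT-11 library lay below the lowest vehicle library, and the lowest CPT-11 value was that of replicate 2. The means were 88.1 ± 29.0 CPM with CPT-11 and 178 ± 19.7 CPM with vehicle (SD, n = 4 each). Ugt1a1 fell, with a log2 fold change of -1.02 (SE 0.23) and an adjusted p of 0.035 in edgeR. Without CPT-11 replicate 2 the value was -0.81 with an adjusted p of 0.0069. The gene no longer passed without CPT-11 replicate 1 (0.081) or 4 (0.0829), and without vehicle replicate 1 (0.0986), 2 (0.0955), 3 (0.108) or 4 (0.0628).

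Ugt1a6a, whose human counterpart conjugates small phenols, was at 25.0, 22.9, 25.0 and 28.2 CPM in CPT-11 replicates 1 to 4, against 6.25, 12.4, 9.68 and 6.78 CPM in vehicle replicates 1 to 4. All CPT-11 libraries, replicate 2 included, lay within a narrow range above every vehicle library. Means were 25.3 ± 2.19 CPM with CPT-11 and 8.79 ± 2.86 CPM with vehicle (SD, n = 4 each). Ugt1a6a rose 2.88-fold, with a log2 fold change of 1.52 (SE 0.22) and an adjusted p of 0.00579 in edgeR. The call held in 19 of 19 alternatives, with log2 fold changes of 1.39 to 1.73.

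Its near-copy Ugt1a6b was at 2.48, 2.62, 0.555 and 0 CPM in CPT-11 libraries and at 0, 2.16, 3.85 and 1.72 CPM in vehicle libraries. The groups overlapped, and the log2 fold change was -0.47 (SE 1.10), with an adjusted p of 0.811 in edgeR. Summing both rows removes the division of reads between the copies, though not that with the other Ugt1a rows. The sum was 27.5, 25.5, 25.5 and 28.2 CPM in CPT-11 libraries, against 6.25, 14.6, 13.5 and 8.50 CPM in vehicle libraries. The groups did not overlap, and the sum rose by a log2 fold change of 1.32 (SE 0.25) with an adjusted p of 0.0169. This call was lost without vehicle replicate 4, where the adjusted p was 0.0534, and without CPT-11 replicates 2 and 4 together, where it was 0.0524.

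Ugt1a7c, which in the deposited division took the largest share of the locus in all libraries but CPT-11 replicate 2, was at 181, 16.4, 209 and 171 CPM in CPT-11 libraries, against 213, 223, 225 and 168 CPM in vehicle libraries. The CPT-11 values of replicates 1, 3 and 4 lay within the vehicle range and the value of replicate 2 far below it. The log2 fold change was -0.52 (SE 0.55, adjusted p 0.576 in edgeR), and -0.14 without replicate 2.

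Ugt1a10 was at 0, 32.3, 0 and 1.98 CPM in CPT-11 libraries and at 0 in all 4 vehicle libraries. Almost all of it came from CPT-11 replicate 2, whose estimated count was 524, and the gene did not pass the filter. A count of 0 allows up to 3 counts, or 0.125 to 0.185 CPM per library, by counting error alone. The other Ugt1a rows showed the same library. Ugt1a8 was at 1.05, 42.4, 0 and 0 CPM in CPT-11 libraries, against 2.93, 1.60, 2.36 and 4.69 CPM in vehicle libraries. Ugt1a9 was at 4.37, 46.9, 1.47 and 13.1 CPM in CPT-11 libraries, against 12.4, 16.4, 14.0 and 9.98 CPM in vehicle libraries. In both, CPT-11 replicate 2 was the highest of the 8 libraries. Ugt1a5 and Ugt1a2 reached 28.8 and 26.1 CPM in that library, and were at 0 to 2.89 CPM in the other CPT-11 libraries and at 0 to 3.92 CPM in vehicle libraries. Their log2 fold changes were 1.89 for Ugt1a8, 0.31 for Ugt1a9, 2.28 for Ugt1a5 and 2.10 for Ugt1a2, with adjusted p of 0.385 to 0.829. Without CPT-11 replicate 2 these became -3.03, -1.06, -0.76 and -0.74.

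With all 9 Ugt1a rows summed, the locus was at 309, 268, 359 and 305 CPM in CPT-11 libraries, against 411, 459.7, 442 and 352 CPM in vehicle libraries. CPT-11 replicate 3 lay just above vehicle replicate 4, so the groups overlapped by that 1 pair. Means were 310.3 ± 37.4 CPM with CPT-11 and 416 ± 47.3 CPM with vehicle (SD, n = 4 each). The log2 fold change was -0.42 (SE 0.15) with an adjusted p of 0.118 in edgeR, so the summed locus was not called, in a table where 5.51% of genes were. DESeq2 gave the same size with an adjusted p of 0.0274, and limma-voom with quality weights gave -0.40 with 0.0187. Without CPT-11 replicate 2 the value was -0.35 with an adjusted p of 0.126.

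**Figure D3:**
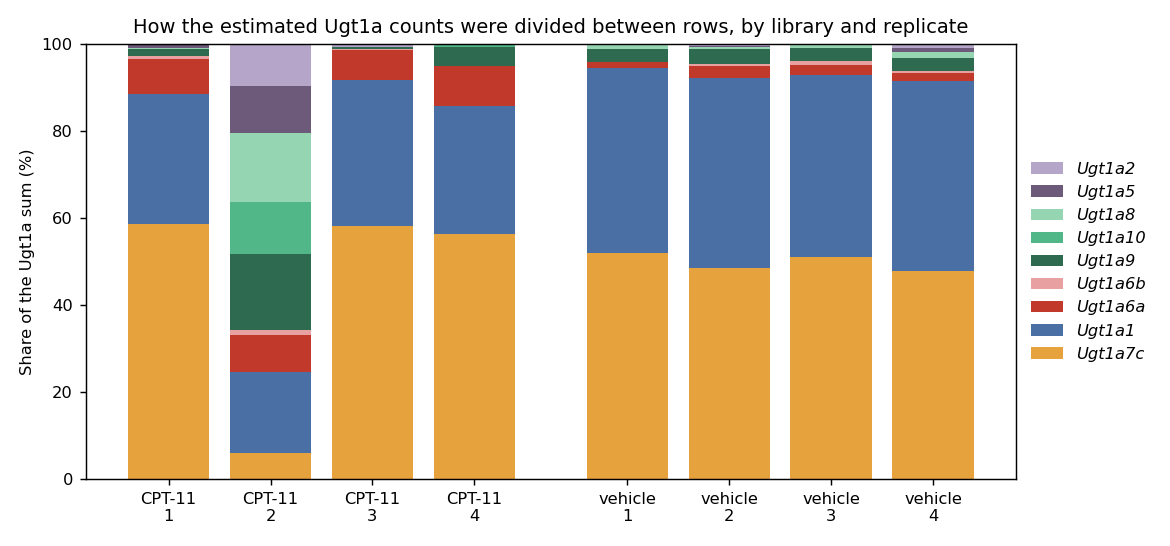
Share of each of the 9 rows in the Ugt1a sum, in percent, one stacked bar per library, with the 4 CPT-11 libraries to the left of the 4 vehicle libraries. Ugt1a1 holds 18.6% to 33.5% in CPT-11 bars and 41.9% to 43.6% in vehicle bars, and CPT-11 replicate 2 spreads over rows that are thin elsewhere.

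Within the locus, Ugt1a1 made up 29.8%, 18.6%, 33.5% and 29.5% of the Ugt1a sum in CPT-11 libraries, against 42.5%, 43.6%, 41.9% and 43.6% in vehicle libraries. The groups did not overlap, and the vehicle libraries spanned a narrow band. Ugt1a6a made up 8.10%, 8.53%, 6.95% and 9.26% in CPT-11 libraries, against 1.52%, 2.71%, 2.19% and 1.93% in vehicle libraries. Again every CPT-11 library lay on one side of every vehicle library. The mean share differed by -15.1 percentage points for Ugt1a1 and by 6.12 for Ugt1a6a. Each had an exact two-sided permutation p of 0.0286, the smallest that 4 against 4 libraries allow, and 0.129 after Benjamini-Hochberg adjustment over the 9 rows. Ugt1a7c made up 58.7%, 6.10%, 58.1% and 56.3% in CPT-11 libraries, against 51.9%, 48.5%, 51.0% and 47.8% in vehicle libraries. Its share was higher in 3 CPT-11 libraries than in any vehicle library and far lower in replicate 2, with a difference of -5.04 percentage points in all libraries and of 7.86 without that replicate. A share depends on the other rows of the sum, so these differences are not independent of one another.

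Ugt2a3, an enzyme of the Ugt2 family whose human counterpart conjugates bile acids, was at 54.9, 62.0, 53.6 and 34.5 CPM in CPT-11 libraries, against 84.7, 135, 114 and 71.4 CPM in vehicle libraries. The highest CPT-11 library was below the lowest vehicle library. Means were 51.3 ± 11.8 CPM with CPT-11 and 101 ± 28.6 CPM with vehicle (SD, n = 4 each). Ugt2a3 fell, with a log2 fold change of -0.98 (SE 0.23) and an adjusted p of 0.0411 in edgeR. Without CPT-11 replicate 2 the value was -1.08 with an adjusted p of 0.0278. The call was lost without CPT-11 replicate 1 (adjusted p 0.0848) or 4 (0.0838), and without vehicle replicate 1 (0.0846), 2 (0.101) or 3 (0.126). Leaving out CPT-11 replicates 2 and 4 together also lost it, with an adjusted p of 0.0753.

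The Ugt2b enzymes conjugate steroids, bile acids and drugs. Ugt2b34 was at 305, 235, 338 and 241 CPM in CPT-11 libraries, against 275, 291, 235 and 270.4 CPM in vehicle libraries. The groups overlapped, although CPT-11 replicates 1 and 3 lay above every vehicle library. The log2 fold change was 0.06 (SE 0.16), with an adjusted p of 0.817 in edgeR. Without CPT-11 replicate 3 the sign turned, to -0.045. Ugt2b35 was at 27.1, 12.7, 26.8 and 25.5 CPM in CPT-11 libraries, against 27.7, 24.7, 30.2 and 29.7 CPM in vehicle libraries. Replicate 2 alone lay apart, and the log2 fold change of -0.28 (SE 0.22, adjusted p 0.441) became -0.08 without it.

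Ugt2b36 was at 5.36, 9.37, 6.86 and 7.71 CPM in CPT-11 libraries, against 10.4, 10.0, 8.64 and 13.4 CPM in vehicle libraries. The groups overlapped by 1 pair. Ugt2b36 had a log2 fold change of -0.54 (SE 0.21), with an unadjusted p of 0.0268 and an adjusted p of 0.151 in edgeR. The gene had -0.66 without CPT-11 replicate 2 (adjusted p 0.0585). It passed with limma-voom with quality weights (-0.86, adjusted p 0.00511) and without CPT-11 replicates 2 and 4 together (-0.79, 0.0375), where Ugt1a1 and Ugt2b36 were the 2 fallen members. Ugt2b5 was at 5.64, 9.19, 5.05 and 6.51 CPM in CPT-11 libraries, against 8.58, 8.05, 7.59 and 15.6 CPM in vehicle libraries. Vehicle replicate 4 was high and CPT-11 replicate 2 lay inside the vehicle range, and the log2 fold change was -0.60 (SE 0.28, adjusted p 0.215). It was -0.30 without vehicle replicate 4 (adjusted p 0.468) and -0.79 without CPT-11 replicate 2 (0.0902). With limma-voom with quality weights it was -0.76, and the gene passed (adjusted p 0.0418). Summed with its near-copies Ugt2b37 and Ugt2b38, Ugt2b5 had a log2 fold change of -0.62 and an adjusted p of 0.179, and of -0.33 without vehicle replicate 4. Ugt2b38 alone was at 0.185 to 0.937 CPM in CPT-11 libraries and 0.669 to 1.64 CPM in vehicle libraries, with an adjusted p of 0.321.

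All 10 Ugt2 rows together were at 399, 328, 432 and 317 CPM in CPT-11 libraries, against 407, 469, 396 and 402 CPM in vehicle libraries. The groups overlapped, and the log2 fold change was -0.18 (SE 0.15) with an adjusted p of 0.454 in edgeR, in a table where 5.48% of genes were called. The ratio of Ugt1a to Ugt2 counts within a library, which does not depend on scaling, was 0.774, 0.818, 0.832 and 0.962 in CPT-11 libraries, against 1.01, 0.980, 1.11 and 0.874 in vehicle libraries. One CPT-11 library exceeded 1 vehicle library. The mean log2 ratio differed by -0.23, with an exact two-sided permutation p of 0.0571, so a difference between the families was not shown.

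Per kb of listed transcript length, mean levels in CPT-11 libraries ran from Ugt2b34 (91.7 CPM per kb) through Ugt1a7c (44.7), Ugt1a1 (39.6), Ugt2a3 (24.2), Ugt1a6a (11.2), Ugt2b35 (6.85), Ugt2b36 (3.88), Ugt1a10 (3.82) and Ugt2b5 (3.55) to Ugt1a6b (0.613). In vehicle libraries the order was Ugt2b34 (87.7 CPM per kb), Ugt1a1 (80.2), Ugt1a7c (64.2), Ugt2a3 (47.9), Ugt2b35 (8.36), Ugt2b36 (5.62), Ugt2b5 (5.36), Ugt1a6a (3.88), Ugt1a6b (0.840) and Ugt1a10 (0). Ugt2b34 stood clear of the next gene in CPT-11 libraries and overlapped Ugt1a1 in vehicle libraries. Neighbours whose ranges overlapped in CPT-11 libraries were Ugt1a7c with Ugt1a1, Ugt1a1 with Ugt2a3, and Ugt2b35, Ugt2b36 and Ugt1a10 each with the next. In vehicle libraries the first 3 genes each overlapped the next, as did Ugt2b36 with Ugt2b5, Ugt2b5 with Ugt1a6a, and Ugt1a6b with Ugt1a10. Ugt1a6a stood above Ugt2b35 in the CPT-11 order and below Ugt2b5 in the vehicle order. The CPT-11 place of Ugt1a10 came from replicate 2. Without that library its mean was 0.294 CPM per kb, the last of the 10 and below Ugt1a6b (0.439), while the other 9 kept their order.

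**Figure D4:**
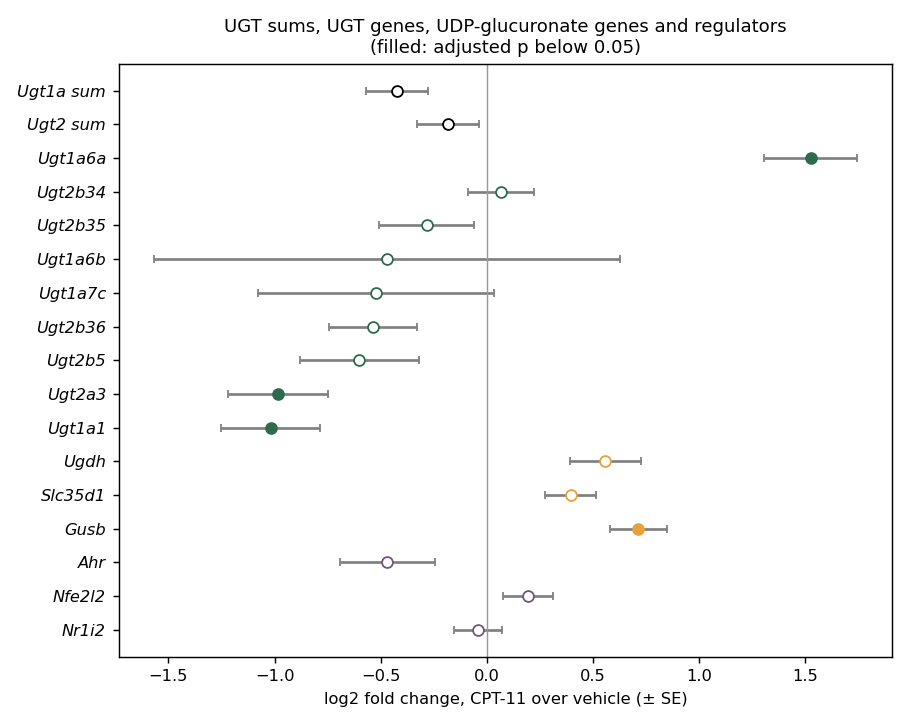
Log2 fold change (CPT-11 over vehicle) with SE for the Ugt1a and Ugt2 sums, the 9 tested members, 3 genes of UDP-glucuronate supply and cleavage (orange) and 3 regulators (purple); filled points have an adjusted p below 0.05. Ugt1a6a and Gusb lie to the right and Ugt1a1 and Ugt2a3 to the left, while all 3 regulators are open points.

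Of 12 genes of UDP-glucuronate supply and cleavage, 1 rose and 0 fell, with a median log2 fold change of 0.35 against 0.01 over all genes, of which 2.98% rose. At an unadjusted p below 0.05, 6 were higher and 0 lower, against 1873 higher and 1569 lower of all 14011 tested genes. Over all genes, 1045 rose with DESeq2, 1535 with limma-voom with quality weights and 684 with the gene length trend removed. Within the list, the number that rose was 5, 6 and 4 in these settings. It was 2 without CPT-11 replicate 2, also when replicate 4 was left out with it, and 0 without CPT-11 replicate 1 or vehicle replicate 1, 2 or 4. The one that rose in the edgeR fit of all 8 libraries was Gusb, the lysosomal beta-glucuronidase that removes glucuronic acid. Gusb was at 40.8, 31.7, 36.0 and 42.4 CPM in CPT-11 libraries, against 22.9, 21.3, 25.6 and 22.2 CPM in vehicle libraries. The groups did not overlap, and the log2 fold change was 0.71 (SE 0.13, adjusted p 0.0154 in edgeR). That call was lost without CPT-11 replicate 1 (adjusted p 0.0533) and without vehicle replicate 1 (0.0641), 2 (0.0587) or 4 (0.0553).

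Ugdh, which makes UDP-glucuronate, was at 194, 115, 184 and 154 CPM in CPT-11 libraries, against 107, 121, 105 and 107 CPM in vehicle libraries. CPT-11 replicate 2 alone fell inside the vehicle range. The log2 fold change was 0.56 (SE 0.17, adjusted p 0.0824 in edgeR), and without replicate 2 it was 0.70 with an adjusted p of 0.00491. Slc35d1, which carries UDP-glucuronate into the endoplasmic reticulum, was at 20.8 to 24.7 CPM in CPT-11 libraries and 16.4 to 17.96 CPM in vehicle libraries, with a log2 fold change of 0.39 and an adjusted p of 0.0839. DESeq2 called both, with adjusted p of 0.0172 for Ugdh and 0.0118 for Slc35d1.

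Among 16 transcription factors known to regulate UGT genes, 0 were called by edgeR and the median log2 fold change was -0.30. At an unadjusted p below 0.05, 0 were higher and 5 lower, against 1873 higher and 1569 lower of all 14011 tested genes. DESeq2 called 0 of the 16 higher and 5 lower, against 1045 higher and 839 lower of all tested genes. Without CPT-11 replicate 3, edgeR called 5 lower, and without replicate 2 it called 1. Over all genes, 753 of 14159 and 540 of 14203 were called lower in these settings. On the log2 scale, the fold change of Ahr, the receptor of aromatic hydrocarbons, was -0.47 (adjusted p 0.228), Nfe2l2, which encodes NRF2, 0.19 (0.329), and Nr1i2, which encodes PXR, -0.04 (0.837).

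Over all tested genes, edgeR called 2.98% higher and 2.52% lower, the background for this list and the next ones. Of 18 NRF2 target genes, 17 were tested, 7 rose and 0 fell, with a median log2 fold change of 0.63. Without CPT-11 replicate 1 or vehicle replicate 4 the number that rose was 4, and without vehicle replicate 1 or 3 it was 3. Ephx1, a detoxifying epoxide hydrolase, was at 88.6 to 111 CPM in CPT-11 libraries, against 13.9 to 17.5 CPM in vehicle libraries, a log2 fold change of 2.75 (adjusted p 9.26e-06). Gsta3, a glutathione S-transferase, was at 31.5 to 47.7 CPM in CPT-11 libraries and 2.38 to 4.64 CPM in vehicle libraries, with 3.40 (7.67e-05). Gsta1 had 1.54 (0.00818) and Gsta4 1.56 (0.0166), the last lost without vehicle replicate 1 (0.0665) or 3 (0.0716).

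Of 8 AhR target genes, 5 were tested and Nqo1, also on the NRF2 list, rose, with a log2 fold change of 0.63 and an adjusted p of 0.0343 in edgeR. That call was lost without CPT-11 replicate 1 (0.0934) or 4 (0.0827), or any 1 vehicle library (0.0729 to 0.116). Of 10 PXR and CAR target genes, 2 rose and 0 fell, while 3 rose and 1 fell without CPT-11 replicate 2. The number that rose was 4 with DESeq2, 1 without CPT-11 replicate 1 or vehicle replicate 4 and 0 without vehicle replicate 1 or 3. The cytochrome P450 gene Cyp2c55 rose, by 1.20 on the log2 scale (adjusted p 0.0129), and no longer passed without vehicle replicate 1 (0.0584) or 3 (0.0608). Cyp3a11, a drug-oxidising cytochrome P450, had 1.52 (0.0278), lost without CPT-11 replicate 1 (0.066) or vehicle replicate 1 (0.0979), 3 (0.104) or 4 (0.0787).

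Of the 7 tested of 10 genes of sulfation, the conjugation route beside glucuronidation, 1 rose and 0 fell, with a median of -0.10. It was Papss2, which makes the sulfate donor, with a log2 fold change of 0.81 (adjusted p 0.0287), lost without CPT-11 replicate 1 (0.0697) or vehicle replicate 1 (0.0919), 3 (0.103) or 4 (0.0853), and 2 genes of the list rose without CPT-11 replicate 3. Of 19 genes that handle irinotecan and SN-38, 4 rose and 3 fell. The number that rose was 7 with DESeq2, and 2 without CPT-11 replicate 1 or vehicle replicate 1, 3 or 4. The carboxylesterases Ces1g and Ces1f rose by log2 fold changes of 2.80 (adjusted p 0.00192) and 1.53 (0.00358). Their relative Ces1d fell by 1.15 on the log2 scale (0.012), a call lost without vehicle replicate 1 (0.0513), and the other 5 of the 8 carboxylesterases listed did not pass, with log2 fold changes of -0.49 to 0.34. Bche, a butyrylcholinesterase, fell by 1.13 on the log2 scale (0.00453), and Slco2b1, an organic anion transporter, fell by 1.39 (0.00453).

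The preparation was not sorted, and marker genes of cell types moved between groups. Fewer cells of a type and less transcript per cell cannot be told apart in these bulk libraries. The 16 enterocyte markers summed to 23292 to 67857 CPM in CPT-11 libraries, against 14124 to 22555 CPM in vehicle libraries; 2 rose, 0 fell, 15 had a positive log2 fold change and none was at 0 in any library. CPT-11 replicate 2 held the highest sum, and the others reached 31598 CPM at most. The 6 markers of crypt stem and dividing cells summed to 412 to 625 CPM in CPT-11 libraries, against 1539 to 1917 CPM in vehicle libraries, and 5 of them fell. Lgr5, the defining stem cell marker, was at 2.80 to 3.22 CPM in CPT-11 libraries and 11.8 to 13.6 CPM in vehicle libraries. Ascl2, the marker of this set that did not fall, was at 9.12 to 15.7 CPM in CPT-11 libraries. It was at 7.77 to 10.2 CPM in vehicle libraries, with a log2 fold change of 0.37 (adjusted p 0.260 in edgeR). The 6 Paneth cell markers summed to 25379 to 47174 CPM in CPT-11 libraries and 40796 to 58383 CPM in vehicle libraries, with 0 called. Without CPT-11 replicate 2, which held 47174 CPM, the CPT-11 range was 25379 to 36591 CPM and lay below every vehicle library. The 7 goblet cell markers summed to 10631 to 36672 CPM in CPT-11 libraries and 10538 to 14686 CPM in vehicle libraries, with 0 called and a CPT-11 maximum of 20204 CPM without replicate 2.

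The 6 markers of liver cells, which are rich in UGTs, summed to 6.80 to 23.6 CPM in CPT-11 libraries and 9.14 to 12.7 CPM in vehicle libraries, and the CPT-11 maximum was 12.1 CPM without replicate 2. Alb was at 0 in all CPT-11 libraries. Of 3 liver markers tested, Cyp2e1 fell, with a log2 fold change of -2.74 (adjusted p 0.0406) and levels of 0 to 0.365 CPM in CPT-11 libraries and 0.832 to 1.28 CPM in vehicle libraries. The call was lost without CPT-11 replicate 4 (0.0914) or any 1 vehicle library (0.0916 to 0.117). The other tested liver markers, Ttr and Serpina1c, went the other way and were not called. Their log2 fold changes were 0.20 (adjusted p 0.755 in edgeR) and 0.79 (0.308).

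The 9 leukocyte markers summed to 89.0 to 118 CPM in CPT-11 libraries and 51.96 to 137 CPM in vehicle libraries. The B cell marker Cd79a rose, with levels of 2.22 to 6.78 CPM in CPT-11 libraries and 0.174 to 1.67 CPM in vehicle libraries (adjusted p 0.0406). So did Ms4a1, with 0.921 to 1.88 CPM in CPT-11 libraries and 0.131 to 0.459 CPM in vehicle libraries (0.0195). Both calls were lost without CPT-11 replicate 1 or 4 or vehicle replicate 1 or 4, and that of Cd79a also without vehicle replicate 2. Of the 8 leukocyte markers tested, 6 had a positive log2 fold change. Jchain (-0.43, adjusted p 0.737 in edgeR) and Itgax (-0.25, 0.748) went the other way. The 9 markers of stroma, vessels and muscle summed to 9.68 to 65.1 CPM in CPT-11 libraries and 6.10 to 18.8 CPM in vehicle libraries, with a CPT-11 maximum of 18.3 CPM without replicate 3. The 6 markers of epithelium in general summed to 11245 to 15260 CPM in CPT-11 libraries and 10286 to 11851 CPM in vehicle libraries, and the 6 of enteroendocrine and tuft cells to 249 to 365 CPM in CPT-11 libraries and 255 to 309 CPM in vehicle libraries. Without CPT-11 replicate 2 the CPT-11 maxima of these sets were 13790 and 257 CPM. None of the markers of stroma, vessels and muscle, of epithelium in general or of enteroendocrine and tuft cells was called. The part of these marker levels in the UGT results was not tested.

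Among the genes whose profile over the 8 libraries was most like that of the Ugt1a sum, out of 11677 compared, were Ttc7, Mro and Aco1. Likeness was the root mean square difference of log2 CPM profiles centred on the vehicle mean, and it was 0.058 for Ttc7, 0.066 for Mro and 0.069 for Aco1. Their log2 fold changes were -0.42 to -0.37, with adjusted p of 0.123 to 0.150 in edgeR. They share the libraries, so the likeness is a description.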

How the data were processed

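RNA of ileal crypt cells was sequenced in 8 libraries, 4 per group. The authors deposited estimated counts per gene; as the values show, these were not scaled to a common total. The submitters' processing notes name Bowtie2 2.4.1 and the build GRCm38.p6. The estimating tool and its strand setting are not given in the sources used. The 543 rows with no gene name (0.325% to 0.662% of each library's counts) were left out. After rounding to integers, the estimated counts were fitted in edgeR 4.0.16 (R 4.3.3): TMM scaling, the default filter (about 10 counts in the smaller group, 15 in total), robust quasi-likelihood F test, two-sided, Benjamini-Hochberg over all genes, threshold 0.05. The fit was tested on simulated data. The Ugt1a and Ugt2 sums replaced their rows in refitted tables of 14004 and 13999 genes. Shares and the ratio of families used exact permutation tests over 70 divisions. The limits given for a count of 0 cover counting error only.

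Exon structure and junctions came from GENCODE M21 and gene ends from RefSeq, both on GRCm38.p6. Alternatives were RLE and upper-quartile scaling, other filters, DESeq2 1.42.0, limma-voom (limma 3.58.1), plain or with quality weights, replicate number as a block, each library left out, CPT-11 replicates 2 and 4 left out together, removal of a gene length trend, and inclusion of unnamed rows. Sums of Ugt1a6a with Ugt1a6b and of Ugt2b5 with Ugt2b37 and Ugt2b38 were added after seeing the data, as were marker ranges and levels per kb without CPT-11 replicate 2. The members and gene lists were chosen with earlier results of these data known. Genes named are the members and sums, other UGT rows that passed the filter, up to 4 called genes of each list with the smallest p plus Ugdh, Slc35d1, Gusb, Ahr, Nfe2l2 and Nr1i2, and genes among the 5 most like the Ugt1a sum; some genes that this rule takes are not reported here. Lgr5, Ascl2, Alb, Cyp2e1, Ttr, Serpina1c, Cd79a, Ms4a1, Jchain, Itgax and Ces1d were named after their values were seen.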

Additional observations from a re-analysis of the deposited data

Results flagged for a closer look

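In groups of 4, 1 library was called far from the other 3 when its gap exceeded Dixon's critical value of 0.829. Chance gives this in about 1 in 20 groups, and 9 of the 42 groups examined met it. These groups are not independent, since shares of the same sum, and the CPM and share of a row, depend on one another. The count is therefore a description and not a test against that rate. CPT-11 replicate 2 accounted for 7 of the 9. In that library Ugt1a10 was at 32.3 CPM, against 0 to 1.98 CPM in the other CPT-11 libraries, and Ugt2b35 was at 12.7 CPM, against 25.5 to 27.1 CPM. Its shares of the Ugt1a sum were 12.04% for Ugt1a10, 9.73% for Ugt1a2, 10.7% for Ugt1a5, 15.8% for Ugt1a8 and 6.10% for Ugt1a7c, while Ugt1a7c held 56.3% to 58.7% in the other CPT-11 libraries. Genes of 3000 bases or more held 16.5% of the counts of that library, the lowest of the 8, and their part in these values was not tested. In vehicle libraries, replicate 4 held 15.6 CPM of Ugt2b5, while the other 3 held 7.59 to 8.58 CPM. The Ugt2 sum was 469 CPM in vehicle replicate 2 and 396 to 407 CPM in its companions.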

How the results depend on the processing

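The number of genes called in the whole table was 770. It was 1884 with DESeq2, 3170 with limma-voom with quality weights, 1212 without CPT-11 replicates 2 and 4 together and 1299 with the gene length trend removed, and leaving out 1 library gave 236 to 1522. Members that rose numbered 1 in all 19 alternatives. Members that fell numbered 2, but 4 with limma-voom with quality weights, and 0 to 2 when 1 library was left out. The Ugt1a sum passed the threshold with DESeq2 (-0.42, adjusted p 0.0274) and with limma-voom with quality weights (-0.40, 0.0187), and was -0.50 to -0.35 when 1 library was left out, never past it. The Ugt2 sum stayed negative and unpassed in all 19, reaching -0.01 without CPT-11 replicates 2 and 4 together. The cause of these shifts was not tested.

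With the replicate number as a block the Ugt1a sum was -0.42 (adjusted p 0.157) and 686 genes were called. Same-numbered libraries correlated in their deviations at 0.234, 0.144, -0.119 and 0.091, and differently numbered ones at -0.274 to 0.244. The labels state no pairing, and whether same-numbered libraries share more than a number was not tested. Under the block the signs of Ugt1a8 (-1.59) and Ugt1a9 (-0.58) turned. Nqo1 (0.63, adjusted p 0.0803), Cd79a (2.49, 0.0563), Ms4a1 (2.43, 0.0568) and Cyp2e1 (-2.88, 0.0735) no longer passed, so 0 AhR target genes rose, and 1 of the transcription factors fell.

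Other signs turned too. With limma-voom they were those of Ugt1a8 (-3.08), Ugt1a5 (-0.68), Ugt1a2 (-0.68) and Ugt1a9 (-0.84). With limma-voom with quality weights they were Ugt1a6b (0.50), Ugt1a8 (-2.57), Ugt1a2 (-3.92) and Ugt1a9 (-1.46, adjusted p 0.0429). Without CPT-11 replicates 2 and 4 together they were Ugt1a8 (-2.49), Ugt1a5 (-0.20), Ugt1a2 (-0.18) and Ugt1a9 (-2.18, adjusted p 0.0241). When 1 library was left out, log2 fold changes ran from -0.93 to 0.11 for Ugt1a6b, -0.045 to 0.15 for Ugt2b34, -3.03 to 2.31 for Ugt1a8, -0.76 to 3.23 for Ugt1a5, -0.74 to 2.52 for Ugt1a2, -1.06 to 0.69 for Ugt1a9 and -0.097 to 0.0093 for Nr1i2.

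Share differences (CPT-11 minus vehicle, percentage points) turned without CPT-11 replicates 2 and 4 together for Ugt1a2 (-0.017), Ugt1a7c (8.57), Ugt1a8 (-0.56) and Ugt1a9 (-2.23). When 1 library was left out they ran from -0.15 to 3.09 for Ugt1a2, -0.11 to 3.46 for Ugt1a5, -0.14 to 0.19 for Ugt1a6b, -9.66 to 7.86 for Ugt1a7c, -0.62 to 4.65 for Ugt1a8 and -1.10 to 4.59 for Ugt1a9. Ugt1a6b and, outside CPT-11 replicate 2, Ugt1a10 had few counts, which limits what their rows can show. Both rows also depend on how shared reads were divided, and the part of each was not tested.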
